A study of Mus musculus with 2 samples.

Results

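Footprint-rich accessible sites of the mouse hippocampus were DNase I peaks that held 7 or more whole footprints in each of 2 replicates. Members were chosen by these footprint numbers: a peak of the longer list of replicate 1 (144270 peaks) had to overlap a peak of the longer list of replicate 2 (124426 peaks) by 1 bp or more. It also had to hold 7 or more of replicate 1's own footprints, and its best-overlapping partner 7 or more of replicate 2's. Of 104366 shared peaks 1361 met the rule, which is 1.3% of them. Some peaks of a list overlap each other, so the 1361 members came to 1330 separate stretches of the genome. The study mapped chromatin accessibility by DNase-seq in 1 group of 2 samples, labelled as biological replicates 1 and 2. Both came from male B6CASTF1/J mice (the C57BL/6J by CAST/EiJ hybrid) aged 8 to 10 months, with no treatment named in the labels. Each sample was a pool of 2 biosamples, and both carry 1 donor label, so the spread between them may be partly technical. The tissue label is layer of hippocampus, with no layer named, and the tissue mixes many cell types. There was no second condition and no p-value is given: members were set beside other shared peaks.

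DNase I cuts DNA where neither a nucleosome nor a bound protein covers it. A peak is a cluster of cuts, and a footprint is a short stretch inside a peak that is cut less than its surroundings, a candidate site of a bound transcription factor. In mammals many promoters of housekeeping and developmental genes lie in CpG islands, stretches rich in G, C and the dinucleotide CpG that are usually free of DNA methylation. Zinc finger factors of the SP, KLF and EGR families bind such sequence, and EGR factors are induced by neuronal activity in the hippocampus. Distal enhancers of excitatory neurons more often carry E-boxes of NEUROD factors and sites of AP-1.

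To show what a dense set of footprints looks like, the member of 300 bp or less with the most footprints in each of 4 kinds of location is printed from the forward strand of GRCm38 (mm10), 5′ to 3′. Capitals mark bases inside a footprint of both replicates. The promoter site lay 330 bp upstream of Cntnap2, a cell adhesion protein of the neurexin family (chr6:45059581-45059880), with 8 footprints in the 300 bp peak of replicate 1 and 15 in its 840 bp partner of replicate 2. The exonic site lay in coding sequence of the zinc finger gene Zfp697 (chr3:98427561-98427840; 9 and 8 footprints). The intronic site lay in Auts2, a gene of neuronal development, 178186 bp upstream of the nearest of that gene's annotated starts (chr5:131794661-131794920; 7 and 10). The intergenic site lay 79978 bp upstream of Riok2, a kinase of ribosome maturation (chr17:17294181-17294480; 10 and 8).
Cntnap2: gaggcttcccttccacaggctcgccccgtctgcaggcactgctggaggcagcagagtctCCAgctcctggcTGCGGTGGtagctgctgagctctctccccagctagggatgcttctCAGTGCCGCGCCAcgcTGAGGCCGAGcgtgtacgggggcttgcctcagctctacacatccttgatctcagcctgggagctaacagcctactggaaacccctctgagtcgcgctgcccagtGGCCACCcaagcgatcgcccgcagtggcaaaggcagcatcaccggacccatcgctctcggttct
Zfp697: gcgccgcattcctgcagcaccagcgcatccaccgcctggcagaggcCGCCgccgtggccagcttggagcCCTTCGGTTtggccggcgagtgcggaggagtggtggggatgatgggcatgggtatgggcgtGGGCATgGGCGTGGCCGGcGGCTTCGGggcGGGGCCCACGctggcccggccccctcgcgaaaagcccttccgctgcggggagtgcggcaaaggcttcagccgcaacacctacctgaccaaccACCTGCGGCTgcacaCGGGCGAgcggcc
Auts2: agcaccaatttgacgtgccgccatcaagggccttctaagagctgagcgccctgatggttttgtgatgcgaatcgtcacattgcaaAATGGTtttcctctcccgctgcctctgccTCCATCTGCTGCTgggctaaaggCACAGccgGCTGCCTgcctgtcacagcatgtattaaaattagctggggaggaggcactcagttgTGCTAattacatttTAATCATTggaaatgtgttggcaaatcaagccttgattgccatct
Riok2: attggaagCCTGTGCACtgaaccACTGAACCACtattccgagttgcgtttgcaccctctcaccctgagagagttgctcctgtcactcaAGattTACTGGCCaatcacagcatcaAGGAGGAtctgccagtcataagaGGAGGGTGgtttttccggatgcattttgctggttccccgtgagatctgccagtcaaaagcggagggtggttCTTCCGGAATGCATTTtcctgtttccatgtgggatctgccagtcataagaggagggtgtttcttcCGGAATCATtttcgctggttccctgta
The stretches in capitals numbered 5 at Cntnap2, 8 at Zfp697, 6 at Auts2 and 8 at the site near Riok2. They covered 13.7% of the bases printed at Cntnap2, 16.9% at Auts2, 23.0% near Riok2 and 23.2% at Zfp697. At Auts2 an E-box of the NEUROD type (CAGATGG, read on the reverse strand) lay inside a footprint of both replicates.

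The members of 300 bp or less with the most footprints per 100 bp were 2 promoters, shown for their density. Galns encodes a lysosomal sulfatase, and its site lay 68 bp upstream of its start and inside the longer gene model Gm20388 (chr8:122611464-122611645; 9 and 12 footprints in the whole peak). Mycn encodes a transcription factor of the MYC family, and its site lay 657 bp upstream (chr12:12942441-12942700; 9 and 11). A further 3 promoters are shown for a motif match whose midpoint lay inside a footprint of both replicates. They were SP/KLF at Tmem87b, a membrane protein (chr2:128817861-128818100), E2F and SP/KLF at Mertk, a receptor kinase for the clearance of dying cells (chr2:128698661-128698955), and EGR at Tmem86a, another membrane protein (chr7:47050481-47050600). Stretches annotated as untranslated exon were left out of the printed part.
Galns: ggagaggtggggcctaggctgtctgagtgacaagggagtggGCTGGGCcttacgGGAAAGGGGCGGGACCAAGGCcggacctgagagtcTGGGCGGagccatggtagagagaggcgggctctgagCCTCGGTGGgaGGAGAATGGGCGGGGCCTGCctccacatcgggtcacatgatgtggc
Mycn: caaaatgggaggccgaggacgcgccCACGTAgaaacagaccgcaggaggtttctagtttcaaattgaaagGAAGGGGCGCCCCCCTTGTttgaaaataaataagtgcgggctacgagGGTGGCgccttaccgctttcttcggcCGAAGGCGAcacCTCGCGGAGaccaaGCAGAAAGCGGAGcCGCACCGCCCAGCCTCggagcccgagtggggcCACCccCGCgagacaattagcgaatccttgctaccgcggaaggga
Tmem87b: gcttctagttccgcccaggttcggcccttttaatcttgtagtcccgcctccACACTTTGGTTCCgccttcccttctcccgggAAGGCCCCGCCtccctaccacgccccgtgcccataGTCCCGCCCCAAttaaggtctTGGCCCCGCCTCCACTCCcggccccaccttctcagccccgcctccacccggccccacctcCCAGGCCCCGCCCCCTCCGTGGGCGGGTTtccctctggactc
Mertk: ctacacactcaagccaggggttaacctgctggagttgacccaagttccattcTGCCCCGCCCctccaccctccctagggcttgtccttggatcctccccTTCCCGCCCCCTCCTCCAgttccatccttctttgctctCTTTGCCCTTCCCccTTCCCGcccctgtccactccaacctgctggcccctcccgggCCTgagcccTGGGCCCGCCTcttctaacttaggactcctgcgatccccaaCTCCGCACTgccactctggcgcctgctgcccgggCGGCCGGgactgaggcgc
Tmem86a: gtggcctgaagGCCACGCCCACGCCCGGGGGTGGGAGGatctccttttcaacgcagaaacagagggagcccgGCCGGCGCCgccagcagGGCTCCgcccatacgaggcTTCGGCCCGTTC
Tmem86a, printed for 120 of its 220 bp, had 45.0% of the printed bases in capitals, Galns 35.2%, Tmem87b 34.6%, Mycn 32.7% and Mertk 26.1%. Bases in small letters can still lie in a footprint of 1 replicate. At Tmem86a the reverse strand of the EGR string lies in the first long block, and at Tmem87b and Mertk GC-rich blocks recur along the site.

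The footprint numbers that chose the members are given as a description. Members held a median of 8 footprints in each replicate, with a range of 7 to 19 in replicate 1 and 7 to 24 in replicate 2, against a median of 2 in each over all shared peaks. With each footprint counted once where members overlap or share a partner, they held 11557 of the 348892 footprints of replicate 1 (3.31%) and 11747 of the 327771 of replicate 2 (3.58%). The plot of footprint numbers shows no gap at the threshold. A lower number of exactly 7 was found in 692 members and exactly 6 in 1676 peaks just outside. The median length was 360 and 380 bp (replicates 1 and 2) in those 692, against 300 and 320 bp in the 1676, and the promoter share was 75.4% against 67.0%. Replicate 1 had more footprints than replicate 2 in 446 members, fewer in 539 and the same number in 376, and 77.8% of members differed by 2 or fewer.

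**Figure D1:**
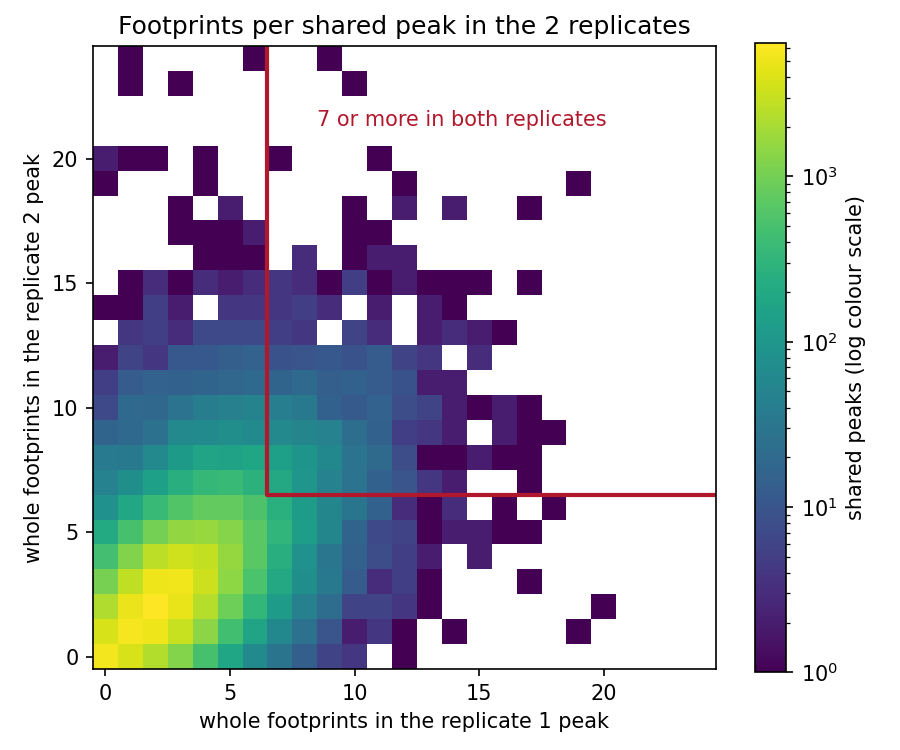
Number of shared peaks (colour, log scale) by whole footprints in the replicate 1 peak (horizontal axis) and in its replicate 2 partner (vertical axis). The 1361 members lie inside the red lines, and the colour falls off evenly across both lines with no separate cluster.

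Each replicate also allowed a look at numbers it had not chosen. Peaks chosen on replicate 1 alone (3509) had a median of 6 footprints in replicate 2, and 38.8% of them had 7 or more there, against 4.23% of all shared peaks. Peaks chosen on replicate 2 alone (4413) had a median of 5 in replicate 1, and 30.8% had 7 or more there, against 3.36% of all shared peaks. Of the peaks chosen on 1 replicate 10.6% and 13.2% held 2 or fewer footprints in the other. Most peaks that were rich in 1 replicate therefore missed the threshold in the other, although they held more footprints there than shared peaks in general. They were also longer there. Peaks chosen on replicate 1 had a median of 320 bp in replicate 2, against 207 bp over all shared peaks. Those chosen on replicate 2 had 300 bp in replicate 1, against 220 bp. Length was not matched here.

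Members were long peaks, and length is tied to the rule because a longer peak holds more whole footprints. The median length was 400 bp in replicate 1 and 420 bp in replicate 2, against 220 and 207 bp over all shared peaks. The longest was 2520 and 2360 bp. Members made up 0.00215% of shared peaks of 200 bp or less in replicate 1 and 22.4% of those over 700 bp. They were also tall: the deposited height, in units of the authors whose scale is not stated, had a median of 2.86 and 2.28 in members, against 0.847 and 0.743 over all shared peaks. In the lowest decile of height no shared peak was a member, and in the highest 5.95% were. For this reason members were compared with the other shared peaks weighted over 20 height classes to the members' heights, called peaks of like height here. A second comparison added 10 length classes (peaks of like height and length), in which 52 members had no counterpart. These 52 stayed in the values of members. The peaks of like height had a median length of 220 bp in both replicates and a median of 4 footprints.

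Tall members were shorter than low ones, as the plot of length and height shows. With members split into 3 classes of height, in the lowest (454 sites, 0.400 to 1.82) the median length was 550.5 and 580 bp, in the middle (453 sites) 400 and 420 bp and in the tallest (454 sites, 3.98 to 21.1) 360 bp in both replicates. Footprints were denser in tall members, with a median of 1.67 and 1.55 per 100 bp in the lowest, 2.14 in both replicates in the middle and 2.33 and 2.35 in the tallest. Over all members the density was 2.06 per 100 bp in each replicate, against 1.56 and 1.67 in peaks of like height and 1.39 and 1.46 in peaks of like height and length. The density is the footprint number of the rule divided by length, so this difference is a description that the choice of members fixes. The rule also ties length to density within the members, since a peak with sparse footprints met it only if it was long. The trends of length and density over the height classes are thus a description too. No lengths or densities of other shared peaks are given by height class, so whether these trends go beyond the rule was not tested. The share at promoters was 60.1% in the lowest, 79.7% in the middle and 91.2% in the tallest members, against 59.2%, 62.3% and 85.7% in peaks of like height and length.

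**Figure D2:**
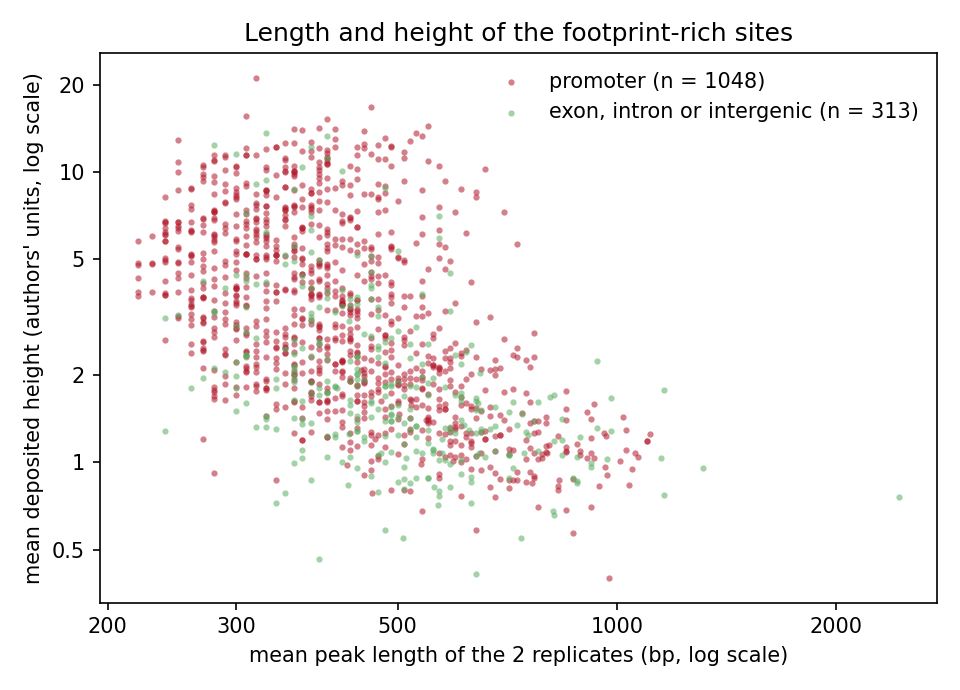
Mean peak length (bp) and mean deposited height of the 1361 members, both on log scales, with 1048 promoter sites in red and 313 exon, intron and intergenic sites in green. Members below a height of 1.82 had a median length of 550.5 bp in replicate 1, and those above 3.98 a median of 360 bp.

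Promoters held most of the members. A peak was placed at a promoter when its midpoint lay within 1000 bp of the start of a protein-coding transcript, which was so for 1048 members (77.0%), against 46.1% of peaks of like height, 67.7% of peaks of like height and length and 20.7% of all shared peaks. With midpoints taken from each replicate in turn the share in members was 77.1% ± 0.156 and the excess over peaks of like height 31.0 ± 0.162 percentage points (SD, n = 2 replicates). This SD reflects the position of midpoints only, since the members are the same in both. Introns held 135 members (9.92%, against 27.2% of peaks of like height and 16.8% with length matched), intergenic sequence 121 (8.89%, against 22.4% and 11.7%) and exons outside promoters 57 (4.19%, against 4.24% and 3.81%). Matching length as well took away most of the excess at promoters, which then came to 9.25 percentage points.

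**Figure D3:**
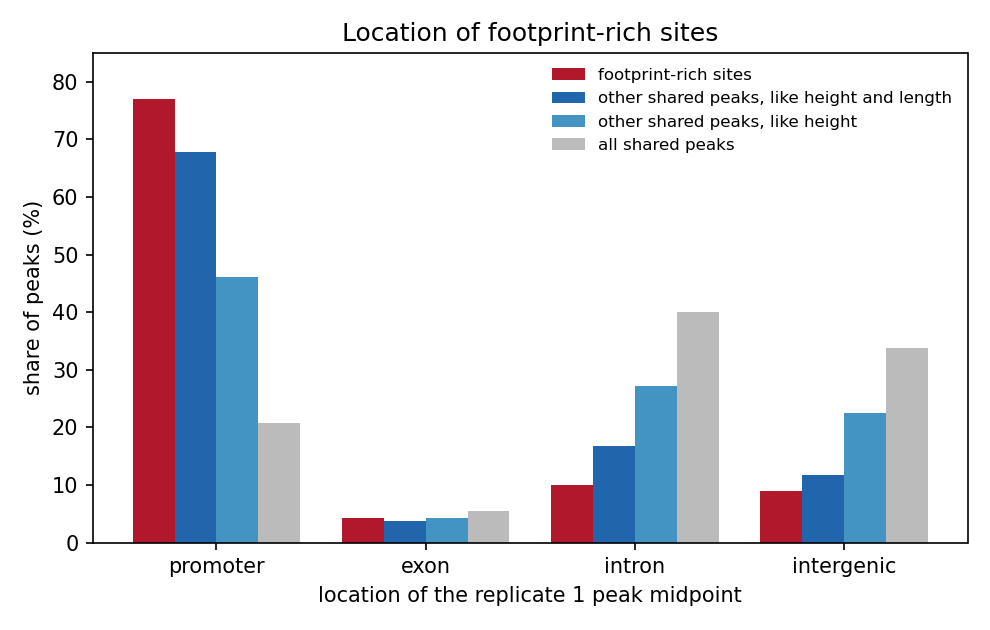
Share of peaks (%) by location of the replicate 1 midpoint, for footprint-rich sites (red), other shared peaks of like height and length (dark blue), other shared peaks of like height (light blue) and all shared peaks (grey). Promoters held 77.0% of footprint-rich sites, 67.7% of peaks of like height and length and 46.1% of peaks of like height.

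The sequence of members was rich in CpG. In the 200 bp around the midpoint the median GC content was 66.0% in members, against 57.5% in peaks of like height and 62.5% in peaks of like height and length. The CpG observed/expected ratio, which is 1 when CpG is as frequent as the base composition predicts, had a median of 0.833 in members, against 0.559 and 0.729. A ratio of 0.6 or more, a usual mark of CpG islands, was found in 79.0% of members, against 47.2% of peaks of like height, 63.7% with length matched and 21.1% of all shared peaks. The difference was present among promoters (median ratio 0.874 in members, against 0.828 in promoter peaks of like height and length) and wider outside them (0.551 against 0.403). Midpoints of replicate 2 gave the same median of 0.833 in members. Only 1 member had 50% or more of its bases in masked repeats. The median masked share of the whole peak was nevertheless higher in members (4.58%) than in peaks of like height (0%) and all shared peaks (0%). With length matched it was 4.64% in the other peaks.

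Promoter members lay mostly upstream of the start. The midpoint of promoter members lay upstream of the start in 63.1%, with a median position of −46 bp, against 59.2% and −39 bp in other promoter peaks of like height and length. In the 50 bp upstream of the start 34.9% of peak bases lay in a footprint in replicate 1 and 32.8% in replicate 2 at members, against 30.2% and 28.7% at the others. From 200 to 250 bp into the gene the shares were 23.1% and 22.3% at members, against 13.5% and 15.6%. The footprint numbers of these peaks were used by the rule, so the height of the profile is a description and its position along the gene is what the rule did not use. Coding starts on both strands were found at 10.6% of promoter members, against 12.2%. The nearest gene of promoter members had a median length of 37003 bp, against 30262 bp, and 24.5% of these genes were longer than 100000 bp, against 21.6%.

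**Figure D4:**
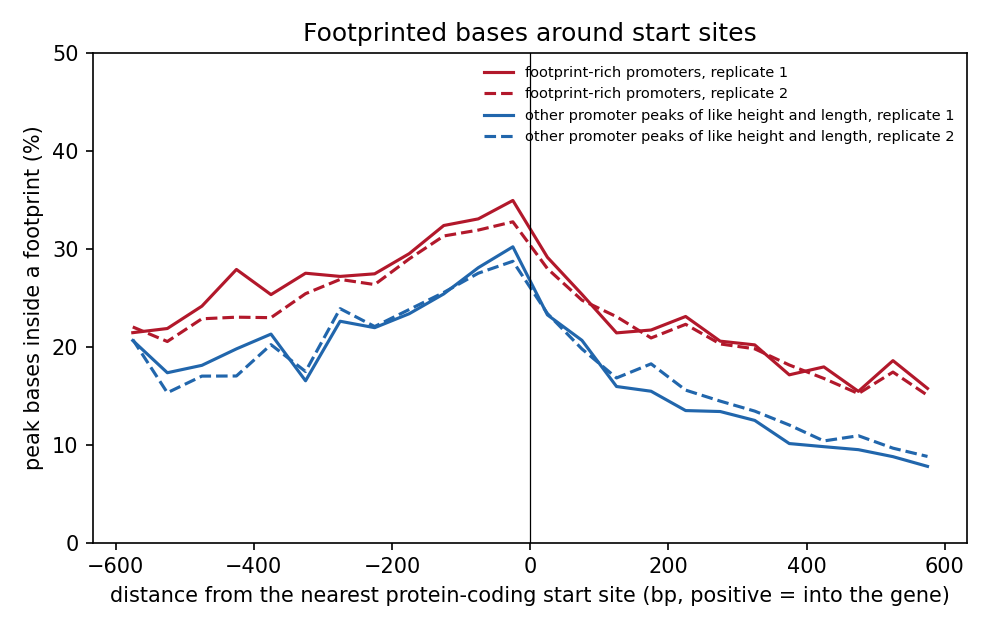
Share of peak bases inside a footprint (%) in steps of 50 bp by distance from the nearest protein-coding start site, for footprint-rich promoters (red) and other promoter peaks of like height and length (blue), with replicate 1 solid and replicate 2 dashed. In both sets and both replicates the share was highest in the 50 bp upstream of the start, at 34.9% and 32.8% in footprint-rich promoters and 30.2% and 28.7% in the others.

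The 10 members with the most footprints were 6 promoters, 2 exonic and 2 intergenic sites. First was a stretch of coding sequence of the protocadherin gene Pcdh10 (chr3:45379401-45381920, mm10), 2234 bp from its start, with 19 footprints in each replicate. It was also the longest member (2520 and 2360 bp), but low, with a height of 0.801 and 0.723. A second protocadherin gene, Pcdh17, had an untranslated exon with 11 footprints in replicate 1 and 20 in replicate 2 (chr14:84445501-84446120), and another member that overlapped it (7 footprints in replicate 1) shared the same partner. The promoters of Grid1, a glutamate receptor of the delta family, Cacna2d1, an auxiliary subunit of calcium channels, and Gfra1, a receptor of the neurotrophic factor GDNF, had 9 and 24, 14 and 18, and 17 and 15. At Grid1 the partner peak in replicate 2 was longer (1180 bp, against 744 bp in replicate 1), as it was at Cacna2d1 (1360 against 660 bp). The promoters of Fam20c, a kinase of secreted proteins, Fam217b and the zinc finger gene Zfp428 had 14 and 18, 12 and 19, and 12 and 18. Outside genes, the site 24453 bp upstream of Calcoco1, a receptor of autophagy, had 17 and 18 footprints over 1140 and 1180 bp (chr15:102746061-102747200). A site 23968 bp from Ythdf1, a reader of methylated RNA, had 10 and 23 (chr2:180896701-180897260), with a partner peak of 2060 bp against 560 bp in replicate 1.

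The tallest members were promoters with footprint numbers at or near the threshold. Gm21887 on chromosome X had a height of 21.6 in replicate 1 and 20.6 in replicate 2 (7 and 7 footprints), Dnpep, an aminopeptidase, 20.2 and 13.3 (9 and 9), and Mrpl17, a protein of the mitochondrial ribosome, 16.9 and 14.4 (7 and 8). Prmt5, an arginine methyltransferase, had 16.4 and 14.0 (7 and 8) and the kinase Gsk3b 18.4 and 10.5 (9 and 9). Their lengths ran from 300 to 600 bp, against up to 2520 bp among the members with the most footprints. Heights were lower in replicate 2 at each of the 5.

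Of the 313 members outside promoters 72 lay within 3000 bp of a coding start (23.0%, against 9.50% of such peaks of like height and 23.3% with length matched) and 194 lay beyond 10000 bp. Within 3000 bp lay sites in introns of Trio, a guanine nucleotide exchange factor, 1007 bp from its start (13 and 13 footprints), of Fgf14, a modulator of sodium channels (10 and 15), and of Phf12, a chromatin reader (12 and 8 over 1060 and 1238 bp). Far from any coding start lay a site in the lincRNA AC131323.3, 14155 bp from the transcription factor gene Sox8 (10 and 15), and one in an intron of the noncoding host gene Mir99ahg, 225435 bp from Usp25 (12 and 11, over 1280 and 1040 bp, with a CpG ratio of 0.325 over the whole peak). Among the 194 far sites 63 (32.5%) had a CpG ratio of 0.6 or more, against 27.1% of far peaks of like height and length. A start of a noncoding transcript lay within 1000 bp of 46 of the 313 (14.7%), against 12.2%. The far members were thus a mixed set in CpG content, and most of the 313 were not near an annotated noncoding start.

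Motif matches were counted as exact strings on either strand in the central 200 bp, which keeps the window equal. The SP/KLF string GGGGCGGGG stood furthest above peaks of like height, in 217 members (15.9%, against 9.52%, 13.7% with length matched and 3.64% of all shared peaks). The E2F string TTCCCGCC, bound by factors of the cell cycle, was found in 3.38% (46 members), against 1.95%, 2.51% and 0.916%, and the EGR string GCGTGGGCG in 1.47% (20 members), against 0.670%, 0.842% and 0.337%. The MYC E-box CACGTG (7.42%, against 6.81%) and the REST string TCAGCACC (1.32%, against 1.17%) differed less. These 5 of 22 strings were higher than in peaks of like height, and 14 of 22 were higher once length was matched too. No comparison matched base content, and the median GC was 66.0% in members, against 57.5% and 62.5% with length matched. The part of base content in the motif shares given here and below was not tested.

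Strings of distal neuronal elements were rarer in members. The NEUROD E-box CAGATGG was found in 3.60%, against 9.88% of peaks of like height and 14.2% of all shared peaks, the AP-1 string TGANTCA in 2.50%, against 5.89% and 9.17%, and the half-site of NFI, CTTGGCA, in 3.31%, against 5.91% and 8.05%. With length matched these were 5.13%, 3.58% and 5.09%, so members stayed lower at the centre. Among promoters alone the shares were 2.19%, 1.81% and 2.29%, against 2.84%, 2.05% and 3.06% of peaks of like height and length. Outside promoters they were 8.31%, 4.79% and 6.71%, against 10.7%, 6.47% and 7.84%. The differences were thus smaller within each kind of location than against peaks of like height. Strings of promoter factors did not all follow SP/KLF: NFY (AGCCAAT) was found in 7.13%, against 8.22%, NRF1 (GCGCATGCG) in 2.13%, against 2.46%, ETS (CCGGAAGT) in 2.57%, against 3.90%, and the cAMP response element CRE (TGACGTCA) in 1.54%, against 2.49%. The insulator string of CTCF, AGGTGGCG, was in 1.69%, against 3.02%. NRF1, ETS and this CTCF string had shares of 1.35%, 2.14% and 1.37% in peaks of like height and length, which puts members above them there. The MEF2 string CTATTTATA was in 0 of 1361 members at the centre, which allows a share of up to 0.220% (3 counts), against 0.218%, so a difference was not detectable at this number.

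**Figure D5:**
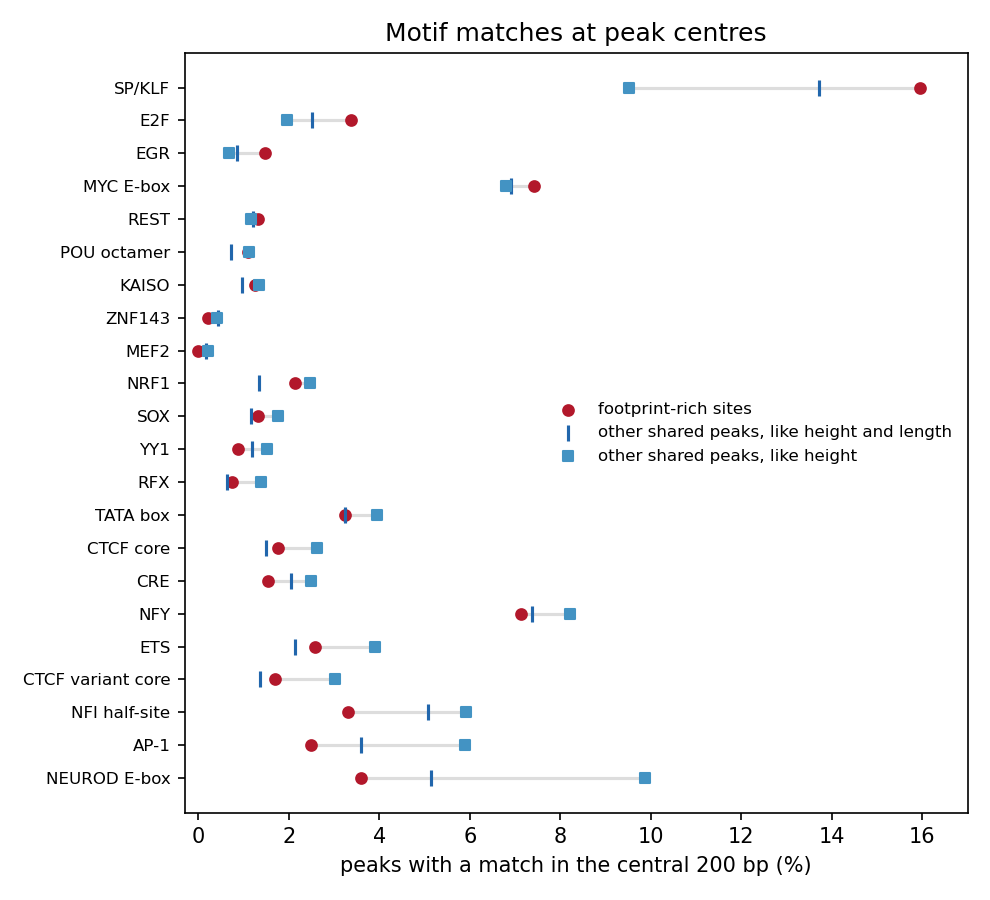
Share of peaks (%) with a match to each of 22 strings in the central 200 bp, for footprint-rich sites (red circles), other shared peaks of like height and length (dark bars) and other shared peaks of like height (light squares), sorted by the difference between circle and square. SP/KLF is at the top (15.9% against 9.52%) and the NEUROD E-box at the bottom (3.60% against 9.88%).

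Promoter members and the 313 other members, near and far from a start, were then compared over whole peaks. Each set was placed beside peaks of the same kind of like height and length. SP/KLF was found in 32.1% of promoter members, against 26.8%, and in 13.4% of other members, against 7.50%. E2F was found in 7.16%, against 4.85%, of promoter peaks and in 4.47% (14 sites), against 1.04%, of others. The MYC E-box was found in 14.0%, against 11.4%, and in 16.6%, against 11.4%. The AP-1 string, rarer in members at the centre, was found in 5.53%, against 4.68%, of promoter peaks and in 12.5%, against 13.3%, of others. Of the 22 strings 15 were higher in promoter members. By height, the NFY string was found at the centre of 1.76% of the lowest height class, 5.08% of the middle and 14.5% of the tallest, against 2.70%, 3.92% and 16.4% of peaks of like height and length. NRF1 was found in 0.661%, 1.77% and 3.96%, against 0.258%, 0.847% and 3.42%. Tall members thus carried NFY and NRF1 strings more often than low ones, as did peaks of like height and length.

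Within the members, matches of some strings lay in footprints far more often than matches of others. In replicates 1 and 2, 83.0% and 84.6% of NRF1 matches (88 and 91 matches) had their midpoint inside a footprint, as did 78.2% and 69.9% of SP/KLF matches (546 and 539), 83.3% and 70.6% of EGR matches (36 and 34) and 79.6% and 72.7% of CRE matches (54 and 55). In peaks of like height and length the shares were 91.3% and 86.1% for NRF1, 75.5% and 69.4% for SP/KLF, 80.7% and 73.3% for EGR and 86.5% and 80.7% for CRE. E2F midpoints (98 and 105 matches) were inside in 54.1% and 47.6%, against 43.3% and 28.9%. Matches of NEUROD (34.8% and 36.8%, against 38.4% and 36.9%) were inside less often, and those of AP-1 seldom (7.34% and 2.80% of 109 and 107, against 8.40% and 5.96%). YY1 (AAGATGGCG) and KAISO (TCTCGCGA) matches were inside more often than in the other peaks, with 55.0% and 40.9%, against 20.6% and 26.5%, and 64.9% and 52.5%, against 43.6% and 33.3%. They rest on 40 and 44 and on 57 and 59 matches, and no test was made. Footprints covered 24.9% and 24.0% of the bases of members, against 17.7% and 17.6% of these other peaks, so a higher share inside footprints is partly fixed by the rule, and these shares support no difference between the sets. They show only which strings were more often inside within the members.

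The footprints of members were short. Their mean length was 13.0 bp in replicate 1 and 12.7 bp in replicate 2, against 16.4 and 16.3 bp in peaks of like height and 14.3 and 13.5 bp with length matched. A length of 20 bp or more was found for 16.6% and 15.1% of them, against 30.8% and 29.4%. Midpoints of neighbouring footprints lay 46.4 and 47.0 bp apart on average, against 48.0 and 47.5 bp, and 59.6 and 58.8 bp with length matched. Footprints covered 24.9% and 24.0% of the bases of members, against 25.8% and 26.4% of peaks of like height and 17.7% and 17.6% with length matched. The cover of members was thus slightly below that of peaks of like height and above that of peaks of like height and length. Length, spacing and cover all depend on the footprint numbers that chose the members, so these values are a description.

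The agreement of footprint positions between replicates is not free of the rule, since more footprinted bases give more overlaps, and it is given as a description. In members 69.8% ± 0.133 of footprints of 1 replicate shared at least 1 bp with a footprint of the other, against 73.4% ± 1.61 in peaks of like height. Each value is the mean and SD over the 2 directions, replicate 1 against replicate 2 and the reverse. Both directions compare the same footprints, so the SDs in this paragraph do not measure a spread between independent replicates. With length matched as well the order turned round, with 64.0% ± 1.41 in the other peaks. Overlap of 50% of each footprint gave 51.3% ± 0.171, against 57.8% ± 1.18 and 48.7% ± 1.89. In the stretch common to both peaks a footprint of the other replicate covered 25.4% and 25.7% of bases in members, against 27.3% and 26.6% in peaks of like height and 18.6% and 18.4% with length matched. The overlap shares of the 3 sets thus had the same order as these covers. In 179 members every footprint of replicate 1 was overlapped, and the median member had 71.4%.

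Heights of members were lower in replicate 2, with a median log2 ratio of replicate 2 to replicate 1 of −0.34, against −0.27 in peaks of like height, −0.35 in peaks of like height and length and −0.18 in all shared peaks. Height was lower in replicate 2 in 92.9% of members, against 78.3% of peaks of like height and 89.6% with length matched. In all shared peaks it was lower in 69.8%. After centring on all shared peaks the median of members was −0.16, against −0.086 in peaks of like height and −0.16 with length matched. Around the midpoint, 1391 of 2000 bp in replicate 1 and 1285 in replicate 2 were listed at a false discovery rate of 0.05 or less in members, against 797 and 727 bp in peaks of like height and 1302 and 1251 bp with length matched. More sequence around the members was listed than around peaks of like height in both replicates, and most of that difference was absent once length was matched.

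Genes with a footprint-rich promoter were read from lists of neuronal, glial, other cell types and housekeeping genes. Of 21840 protein-coding genes 1131 had one (5.18%), and of the 13557 with any shared promoter peak 8.34% did. Against this 8.34%, the postsynaptic density list had 4 of 18 (22.2%): the scaffold genes Shank2 (11 and 12 footprints in replicates 1 and 2), Dlgap4 (9 and 9) and Dlgap1 (10 and 8) and the synaptic adhesion gene Nlgn1 (8 and 7). The list of RNA polymerase II and splicing had 6 of 28 (21.4%), among them the splicing factor genes Srsf6 (11 and 11), Sf3b3 (10 and 10), U2af2 (8 and 11) and Hnrnpa1 (9 and 8). The Hnrnpa1 site had Cbx5 as its nearest gene (−135 bp from that start). Over all genes, 229 shared a member with another gene in this way. Immediate early genes had 2 of 17, Junb, a subunit of AP-1 (7 and 11), and Npas4, a factor induced by neuronal activity (9 and 7). Clock genes had 2 of 18, the nuclear receptor gene Nr1d2 (9 and 8) and Per2 (7 and 7), and chromatin factors 3 of 25, the remodeller Chd4 (8 and 14), Yy1 (7 and 10) and the cohesin gene Stag2 (8 and 9). Such counts are small. Of the 25 lists 8 had a share of their open promoters above 8.34%, and 9 a share of all their genes above 5.18%.

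Housekeeping lists other than splicing had 0 or 1 each (up to 3.85%), against 8.34% of all coding genes with a shared promoter peak. Lists of this length cannot each tell such counts from that share. Cytosolic ribosomal proteins had 1 of 26 (Rps19, 9 and 12 footprints at a height of 10.0 and 6.35), oxidative phosphorylation 1 of 26 (Ndufa4, 9 and 9) and the proteasome 0 of 27, although all members of the 3 lists had a shared promoter peak. The median number of footprints over these open promoters was 4.5, 4.75 and 4.5 per replicate, against 4.5 over all open coding genes. Synaptic vesicle release, a list of neuronal genes, had 1 of 18 (Rims1, 8 and 8). Its median was 5 per replicate, and those of clock genes and chromatin factors were 6 each.

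The tissue label was checked with markers at promoters. Of all protein-coding genes 62.1% had a shared promoter peak. Among the lists it was found at 12 of 12 excitatory neuron genes, 10 of 12 genes of CA pyramidal fields, 8 of 10 of dentate granule cells, 11 of 14 of oligodendrocytes, 7 of 9 of their precursors and 9 of 12 of astrocytes, and at 0 of 12 liver genes and 2 of 23 Hox genes. Lists of other cell types had shares below 62.1%, with 9 of 16 inhibitory neuron genes, 3 of 14 microglial, 2 of 12 endothelial, 6 of 12 mural and fibroblast and 4 of 12 choroid plexus genes, 2 of 10 erythroid and 3 of 12 muscle genes. A footprint-rich promoter was found at 2 excitatory neuron genes, Bhlhe22 (8 and 9) and Fezf2 (8 and 7), at 1 pyramidal gene, Nectin3 (9 and 7), and at 1 of oligodendrocyte precursors, Lhfpl3 (8 and 8). It was found at none of the 11 oligodendrocyte, 9 astrocyte, 9 inhibitory neuron, 3 microglial or 8 granule cell genes with a shared promoter peak, where medians ran from 3 to 5 footprints per replicate. Such short lists cannot tell none from the 8.34% of all open promoters. In a bulk sample the number of cells of a type and the accessibility per cell cannot be told apart, and the part of cell number in these counts was not tested.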

How the data were processed

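DNase-seq of 2 hippocampus samples (1 group) was read from the authors' deposited files, called per sample. The deposited peak lists give a height per peak (unit: signal) whose scale and depth are not stated. The constant 75 in their last column is no measured summit, so centres were midpoints. Intervals at a false discovery rate (q-value) of 0.05 or less are listed in a further deposited file, and the deposited footprint lists carry no score, only 0.01 throughout (perhaps a p-value or q-value limit), which leaves no ranking of footprints. The assembly was mm10, per the labels, and no aligner, caller or version is given in the sources used here. The number of cuts is unknown, so no interval for counting error is given.

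Within the longer lists 2139 and 1942 peaks overlapped an earlier peak of their list, and each replicate 1 peak was paired with the replicate 2 peak that shared most bases, so a partner can serve more than 1 member (1330 distinct partners). Footprints had to lie whole inside the peak of their own sample. Comparison peaks were all other shared peaks, weighted without random draws over 20 height classes with equal numbers of members and, in the second comparison, 10 length classes. Comparisons within promoters and outside them left 76 and 23 members without a counterpart, and these too stayed in the values of members. Genes were taken from GENCODE M21 (basic set) and bases from GRCm38. Locations were assigned in the order promoter, exon, intron, intergenic. All 417 entries of 25 gene lists (410 distinct genes) matched. The 22 strings also included the CTCF core AGGGGGCGC, RFX (GTTGCCATG), ZNF143 (CTACAATTC), the TATA box (TATAAA, which lies in the MEF2 string), the POU octamer (ATGCAAAT) and SOX (CATTGTT).

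Members and lists were chosen with earlier results of these data known. The text names the 10 members with the most footprints, the 5 tallest, the 5 longest, the 3 with the most footprints in each location and up to 4 genes per list with a footprint-rich promoter. A result that this rule takes is not reported here. Functions were tested on simulated data. Alternatives covered the threshold, overlap, peak list, counting rule, comparison set, windows, chromosomes and each replicate alone. With 1 group no test between conditions was made. Tools were Python 3.11.15 with numpy 2.4.6, pandas 2.3.3, pysam 0.24.0 and matplotlib 3.10.9, bedtools 2.31.1 and samtools 1.23.1.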

Additional observations from a re-analysis of the deposited data

How the results depend on the processing

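Values that stayed within the spread between replicates are not repeated: 67 of 111. The spread was the SD over replicates, or over sites chosen on each replicate alone where wider, and counts had to stay within 1.5 times. For shared positions the SD was over both directions of the same comparison. The median length of members was 1.86 times that of peaks of like height, the CpG ratio 0.274 higher, the promoter share 30.9 points higher, and 5 strings were higher. With 6, 8 and 10 or more footprints the number was 3037, 669 and 175, the promoter difference 26.2, 33.6 and 36.2 points, the length ratio 1.59, 2.14 and 2.59 and the CpG difference 0.251, 0.287 and 0.295; 8 strings were higher at 6 or more. With each replicate alone the number ran from 3509 to 4413, the promoter difference from 25.05 to 27.8 points and the CpG difference from 0.285 to 0.292, the length ratio was 1.59 in both, and 7 to 8 strings were higher. Matching height and length gave 9.25 points, a length ratio of 1.03, a CpG difference of 0.105 and 14 strings (13 over whole peaks). It also turned the difference in shared positions round, at 5.82 points against −3.54 points with height alone, and the cause was not tested. Under that match, an alternative chosen after seeing the data, the footprint length difference was −1.06 bp, against −3.53 bp. Against peaks with fewer than 7 in both replicates the promoter difference was 33.4 points and the CpG difference 0.304, and against peaks with 3 or fewer 40.4 points and 0.384, with a length ratio of 2.05 and a position difference of −7.01 points. Promoter differences of 28.9 and 25.8 points came from a 500 bp window and from gene 5′ ends alone. The CpG difference was 0.280 where each pair shared 50% of both peaks, 0.233 with the shorter lists, 0.282 with both samples' footprints in the replicate 1 peak, 0.246 with footprint midpoints, 0.280 without X and Y and 0.259 over whole peaks. Centred heights gave a log2 ratio of −0.16. Taking 1 peak per overlapping group, also chosen after seeing the data, moved none of the 6 values computed. The causes of the other changes were not tested. No paired analysis was possible because the series has 1 group.

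Depth limits what can be said: the number of cuts is not stated, footprints carry no score, and a footprint called in 1 replicate alone cannot be told apart from one missed in the other. With 2 samples the SD is itself poorly known, and mapping of CAST/EiJ reads was not analysed here.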

Other observations

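Chromosome X held 39 members, which is 2.87% of all members, against 1.33% of the weight of peaks of like height. Of its shared peaks 1.46% were members, against 1.3% over all chromosomes. The median height of the X members was 2.84 in replicate 1 and 2.18 in replicate 2, against 2.86 and 2.28 in autosomal members, and their median length 340 and 400 bp. Of the 39, 31 lay at promoters and 4 had Gm21887 as their nearest gene. The mice were male, with 1 X per cell, and heights were not corrected for copy number. The copy number of the X sites, those near Gm21887 included, was not measured. Chromosome Y held no member.

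The 1048 promoter members had 1015 different nearest genes, and 32 of these genes had 2 or more members. Trib1, a pseudokinase, had the highest number, with 3 on chromosome 15. The first (59647621 to 59648020, mm10) had 8 footprints in replicate 1 and 12 in replicate 2, and it ended 1 bp before the others began. Those 2 peaks overlapped each other (59648021 to 59648360, with 9 and 12, and 59648021 to 59648740, with 13 and 7). The first member and the shorter of these 2 had the same partner in replicate 2 (59647621 to 59648340). The 12 footprints given for each are therefore the same ones. Trib1 was picked with these values in view.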
